A study of Mus musculus with 18 samples.

Results

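The genes of glycolysis and of the pentose phosphate pathway were followed through RNA-seq libraries of CD4 T cells from naive and tolerized mice. The members were a named list of 36 genes, chosen by symbol and matched through their Ensembl identifiers among the 37991 genes counted in each library. All 36 were matched, and all 36 passed the minimum of a mean normalized count of 3 in at least 1 group, as did 17240 genes in all. The cells came from the spleens of Tg4-H2u mice of both sexes, aged 6 to 12 weeks, whose transgenic TCR recognizes a peptide of myelin basic protein, and were enriched on magnetic beads rather than sorted. Tolerized mice (T) had received escalating subcutaneous doses of the 4Y variant of this peptide, and naive mice (N) had received PBS on the same schedule. N0 and T0 cells were taken 2 h after a last injection of PBS, and NAg and TAg cells 2 h after a last injection of 80 μg of the peptide Ag. NPI and TPI cells were incubated for 2 h in culture with PMA at 20 ng/ml and the calcium ionophore A23187 at 2 μM (together PI), which act downstream of the TCR. Each of the 6 groups held 3 biological replicates, and the 18 libraries were made from total RNA after removal of ribosomal RNA. PI cells therefore differed from the resting cells by the culture as well as by the stimulus, and the peptide acted in the whole animal.

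Glycolysis breaks glucose down to pyruvate, first spending ATP to make sugar phosphates in its preparatory steps and then regaining ATP and NADH in its payoff steps. Pyruvate is either reduced to lactate and exported or passed to the mitochondria through pyruvate dehydrogenase, which the pyruvate dehydrogenase kinases switch off. The pentose phosphate pathway branches off at glucose phosphate and yields NADPH and the ribose phosphate of nucleotides. Resting T cells use little glucose, and activated T cells are known to raise its uptake and its conversion to lactate. Many of the enzymes exist as isozymes encoded by separate genes.

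Total counts ranged from 10758571 to 24119489 per library, and the highest were in the PI groups. All 10 listed T cell markers had counts in every library. Of these, 9 were lower in NAg than N0 (33.4% of all genes tested) and 8 in TAg than T0 (29.8%). With PI 5 were higher and 5 lower in NPI (28.6% and 32.7%), and 5 and 4 in TPI (31.9% and 36.3%). Neutrophil markers summed to between 6.03 and 13.7 CPM (counts scaled to a common library size) in N0 and to between 138 and 245 CPM in T0, to between 10.5 and 29.3 CPM in NAg and 171 and 305 CPM in TAg, and to between 4.66 and 12.6 CPM in NPI and 29.3 and 49.7 CPM in TPI. Of the 11 neutrophil markers, 10 were higher in T0 than N0, 11 in TAg than NAg and 7 in TPI than NPI, so that these markers move with every comparison of tolerized with naive cells. Erythroid markers reached 193 CPM in 1 T0 library and 127 CPM in 1 TAg library, although 0 of 9 were called between T0 and N0. Reads of Y-linked genes numbered at most 15 in the N0 and NAg libraries and at least 5599 in the NPI and TPI libraries, whereas T0 and TAg held libraries of both kinds. Of 10 macrophage markers 8 were lower in TAg than NAg, where NAg replicate 1 had the highest sum of any library (194 CPM), and 0 of 8 B cell markers were called between the cell states. The sex of the mice therefore cannot be told apart from PI in naive cells, which bears first on the X-linked members *Pgk1*, *G6pdx* and *Pdk3*. With PI itself, 7 of 11 neutrophil and 7 of 10 macrophage markers were lower in NPI than N0, and 9 and 4 in TPI than T0, so that these markers also move with the responses to PI. With the erythroid and neutrophil scores as covariates the members lower in TPI than T0 numbered 4 in place of 12. In bulk libraries, fewer cells of a type and less RNA per cell cannot be told apart.

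Both stimuli raised between 14 and 19 of the 36 members and lowered between 9 and 12, with *Hk2* and the lactate exporter *Slc16a1* among the 3 largest rises each time. After Ag, 18 members were higher and 12 lower in naive cells, where 32.1% and 33.4% of all genes tested were called in these directions at an adjusted p under 0.05 (edgeR's quasi-likelihood test). In tolerized cells Ag raised 19 members against 29.9% of all genes and lowered 10 against 29.8%. PI raised 18 members in naive cells (28.6% of all genes) and lowered 9 (32.7%), and in tolerized cells it raised 14 (31.9%) and lowered 12 (36.3%). At this p threshold alone, the counts of lower members were thus close to or below the share of all genes. The higher members stood above it, least so in TPI. The median log2 fold change of the members was 0.485 in NAg and 0.307 in TAg, against 0 and -0.0533 for all genes tested. For PI the medians were 0.236 in NPI and -0.028 in TPI, against -0.0594 and -0.102. When a fold of at least 2 and a mean normalized count above 50 were also required, Ag raised 11 members (14.2% of all genes) and lowered 7 (16.2%) in naive cells, and raised 9 (12.1%) and lowered 6 (11.3%) in tolerized cells. PI under these limits raised 8 (10.1%) and lowered 2 (10.3%) in naive cells, and raised 11 (13.3%) and lowered 6 (13.7%) in tolerized cells. As shares of the members, the higher ones were 30.6% in NAg, 25% in TAg, 22.2% in NPI and 30.6% in TPI. TPI was thus no longer the response least above the share of all genes. The lower ones were 19.4% in NAg, 16.7% in TAg and 16.7% in TPI, above that share, and 5.56% in NPI, below it.

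**Figure D1:**
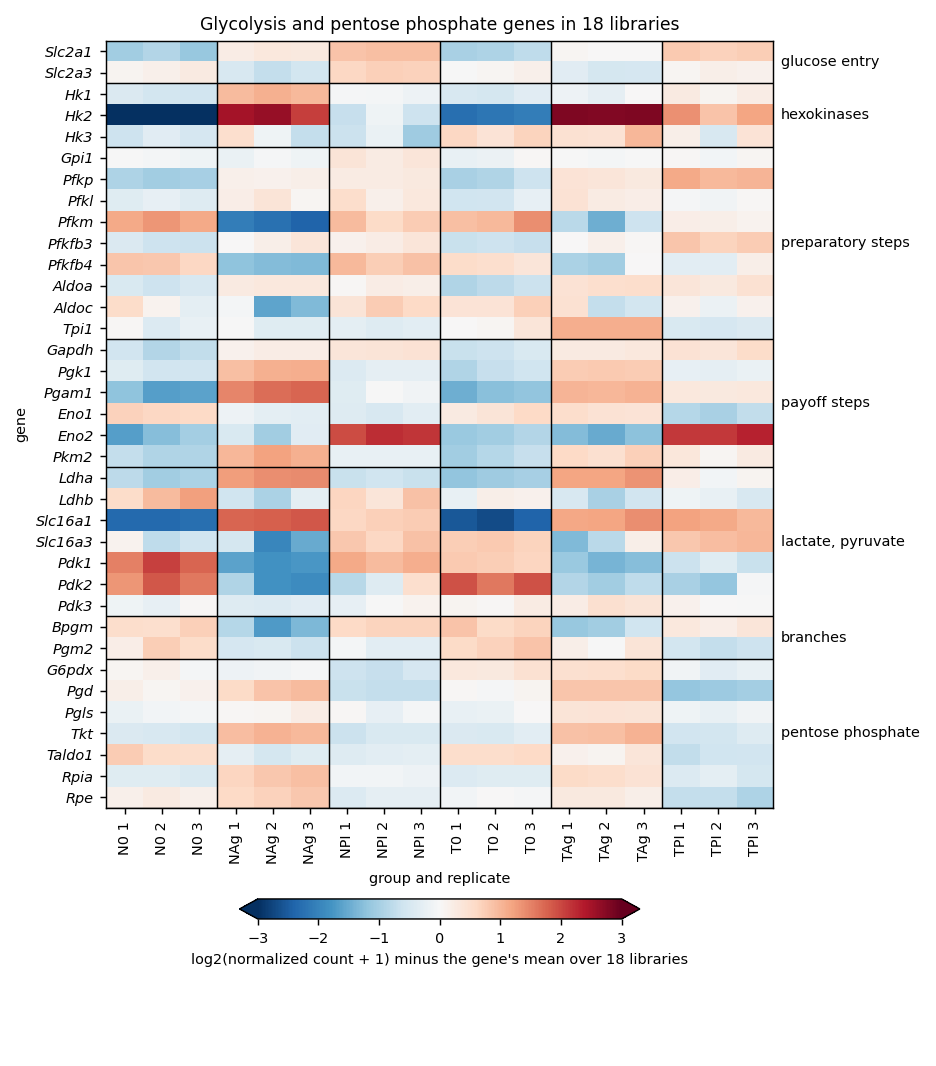
Level of each of the 36 members (rows, grouped by role) in each of the 18 libraries (columns, grouped by N0, NAg, NPI, T0, TAg and TPI), as log2(normalized count + 1) minus the gene's mean over the libraries (color scale). The 3 libraries of a group look alike in most rows, and *Hk2* and *Slc16a1* span the widest range.

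The members together took up a larger share of each library after Ag than at rest, and the direction after PI depended on the scaling. Summed over the 36 genes, their share of all counts was 0.321% ± 0.00802 (SD, n = 3) in N0 and 0.516% ± 0.0112 in NAg, and 0.310% ± 0.00543 in T0 and 0.528% ± 0.0211 in TAg. The 3 libraries of each Ag group lay above those of the resting group, with a lowest share of 0.507% in NAg against a highest share of 0.330% in N0. After PI the share was 0.285% ± 0.00222 in NPI and 0.300% ± 0.0126 in TPI, with every NPI library below every N0 library. This direction turned when the library size was scaled by TMM, the scaling behind all fold changes here and an alternative chosen after the data were seen. As a percent of the scaled library, the sum was 0.261% ± 0.0053 in N0, 0.556% ± 0.0228 in NAg and 0.345% ± 0.00456 in NPI, and 0.235% ± 0.0168 in T0, 0.501% ± 0.0178 in TAg and 0.394% ± 0.0198 in TPI. Every stimulated library then lay above every resting one. The TMM factors were 1.22 to 1.24 in N0 and 0.81 to 0.834 in NPI. Without *Gapdh*, *Eno1* and *Ldha* the share of raw counts was 0.253% in N0, 0.392% in NAg, 0.232% in NPI, 0.242% in T0, 0.386% in TAg and 0.241% in TPI.

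A core of 13 members rose in all 4 responses, namely *Slc2a1*, *Hk1*, *Hk2*, *Pfkp*, *Pfkl*, *Pfkfb3*, *Aldoa*, *Gapdh*, *Pgk1*, *Pgam1*, *Pkm2*, *Ldha* and *Slc16a1*, where 13.3% of all genes tested were called higher in all 4. Read along the pathway, these genes cover uptake, phosphorylation, most steps down to pyruvate, and the making and export of lactate. The 5 members that fell in all 4 were *Pfkm*, *Pdk1*, *Pdk2*, *Pgm2* and *Taldo1*, where 14.8% of all genes were called lower in all 4. No member rose in 1 cell state and fell in the other with the same stimulus. *Hk3* and *Pdk3* passed the test in none of the 4 responses. The responses of naive cells share the N0 libraries, and those of tolerized cells share the T0 libraries.

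**Figure D2:**
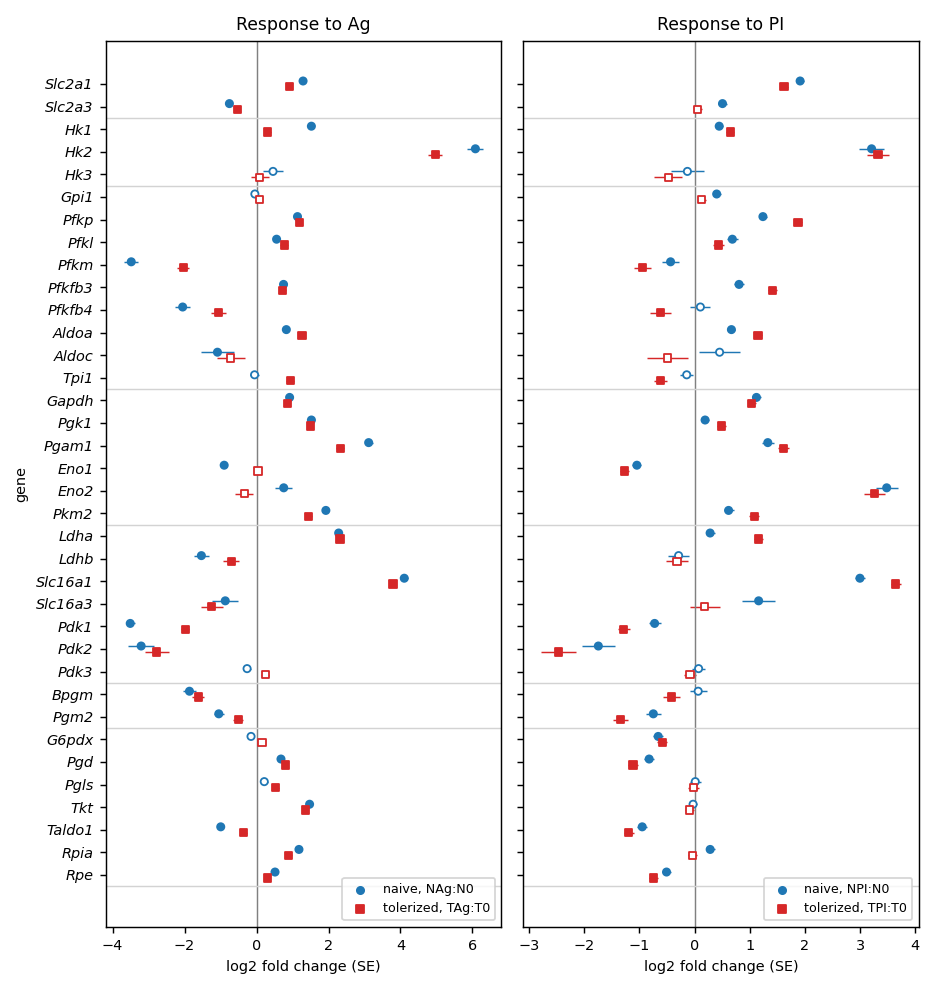
Log2 fold change with its standard error for each of the 36 members after Ag (left) and after PI (right), in naive and in tolerized cells. Filled points passed an adjusted p under 0.05, and *Hk2* after Ag lies farthest to the right in both cell states.

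Promoter sequence was looked at because so many members moved together. ACGTG and GCGTG are the letters at the core of sites of the hypoxia-inducible factors, and CACGTG, which contains ACGTG on both strands, is the E box recognized by Myc. Windows from 250 bases before to 50 bases after the first listed start were found in RefSeq (GRCm38.p6) for 35 members, *Slc2a3* being without one, and were searched on both strands. ACGTG occurred in 16 of these 35 windows (45.7%), against 19.7% of 27025 windows of all genes and 25.2% of 10163 windows of genes tested here. GCGTG occurred in 19 (54.3%), against 32.5% and 49.7%, and CACGTG in 4 (11.4%), against 7.24% and 9.93%. CACGTG was held by *Ldha* and *Slc16a1*, which rose in all 4 responses, and by *Pfkm* and *Pdk2*, which fell in all 4. ACGTG was held by 8 of the 13 members that rose in all 4 responses and by 3 of the 5 that fell in all 4. More than 1 ACGTG match was held by 4 of these 13 and by 3 of these 5. The stretches before the start that span these letters are shown for *Ldha*, *Slc16a1*, *Hk2* and *Pgk1*, the 4 members that rose in all responses and whose windows hold it more than once, with the letters ACGTG, read on either strand, in capitals. They lie at chr7:46845647-46845786 and chr3:104638452-104638481 on the plus strand, chr6:82774490-82774692 on the minus strand and chrX:106186938-106186985 on the plus strand of GRCm38.p6, and each is printed 5′ to 3′ in the direction of the gene.
Ldha: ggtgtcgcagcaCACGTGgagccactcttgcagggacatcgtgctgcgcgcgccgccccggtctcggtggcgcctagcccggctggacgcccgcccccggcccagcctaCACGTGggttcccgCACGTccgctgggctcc
Slc16a1: gcggcgccgggtCACGTGgcgggaaggggg
Hk2: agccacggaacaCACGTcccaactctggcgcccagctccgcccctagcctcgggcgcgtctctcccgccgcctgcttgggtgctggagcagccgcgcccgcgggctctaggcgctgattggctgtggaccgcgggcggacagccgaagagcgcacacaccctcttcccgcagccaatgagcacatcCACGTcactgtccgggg
Pgk1: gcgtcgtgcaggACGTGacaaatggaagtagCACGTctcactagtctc
*Ldha* and *Slc16a1*, which make and export lactate, hold full E boxes here, 2 in *Ldha* and 1 in *Slc16a1*, and *Hk2* and *Pgk1* hold none in these stretches. Both ACGTG matches in the *Slc16a1* stretch are this E box read on either strand, and 1 further match in its window lies outside the stretch and is not shown. A match of letters is a description of the window, and no binding was measured.

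Transcripts of the 2 glucose transporters moved in opposite directions with Ag, and both rose with PI in naive cells. *Slc2a1* encodes GLUT1, the transporter that activated T cells rely on, and lies at chr4:118781316-118809935 on the plus strand, of mm9 (NCBIM37), the build used for all gene positions here. Its normalized counts were 412, 462 and 385 in N0, 989, 1055 and 1039 in NAg, 1556, 1601 and 1586 in NPI, 432, 446 and 504 in T0, 883, 858 and 866 in TAg, and 1463, 1372 and 1415 in TPI. All stimulated libraries lay above all resting libraries, and the PI libraries above the Ag libraries. The log2 fold change, given throughout with its standard error, was 1.29 ± 0.08 (adjusted p = 1.26e-13) in NAg, 0.92 ± 0.08 (adjusted p = 1.06e-10) in TAg, 1.91 ± 0.08 (adjusted p = 2.34e-16) in NPI and 1.62 ± 0.07 (adjusted p = 2.08e-15) in TPI. *Slc2a3* encodes GLUT3, a transporter of high affinity. Its counts were 979.7, 1038 and 1123 in N0, 662, 567 and 631 in NAg, 923, 960.1 and 1027 in T0, and 727, 641 and 652 in TAg, and it fell with Ag in both cell states, with log2 fold changes of -0.76 ± 0.08 and -0.53 ± 0.08. With PI it rose in naive cells, by 0.51 ± 0.08 (adjusted p = 2.78e-06), and in tolerized cells the difference was 0.06 ± 0.08 (adjusted p = 0.503). Per length, *Slc2a1* held 50.4% ± 3.44 (SD, n = 3) of the summed level of both transporters in N0 and 80.8% ± 1.69 in NAg.

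*Hk2* had the largest change of all members with Ag. It encodes hexokinase II, an inducible enzyme that traps glucose by phosphorylation and binds the outer mitochondrial membrane, and it lies at chr6:82675019-82724448 on the minus strand. Its normalized counts were 61.4, 40.7 and 40.7 in N0, 3416, 3752 and 2557 in NAg, 379, 554 and 397 in NPI, 126, 133 and 144 in T0, 4268, 4144 and 4212 in TAg, and 1562, 1103 and 1376 in TPI. No stimulated library overlapped a resting one, and the Ag libraries exceeded the PI libraries in both cell states. Ag raised it by 6.08 ± 0.22 (adjusted p = 9.42e-13), or 67.8-fold, in naive cells and by 4.97 ± 0.20 (adjusted p = 3.89e-12), or 31.3-fold, in tolerized cells. PI raised it by 3.21 ± 0.23 (adjusted p = 7.41e-09) in naive and by 3.33 ± 0.19 (adjusted p = 3.46e-10) in tolerized cells. At rest its level was already higher in T0 than N0, by 1.49 ± 0.25 (adjusted p = 0.000838), and after PI it was higher in TPI than NPI, by 1.61 ± 0.17 (adjusted p = 2.66e-06). After Ag the groups did not overlap either, but TAg against NAg gave 0.38 ± 0.16 (adjusted p = 0.0715), a difference that passed the test with NAg replicate 2 left out (adjusted p = 0.036) or with only the groups compared in the fit (adjusted p = 0.0409).

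*Hk1*, the constitutive hexokinase, responded to Ag far more in naive cells. It lies at chr10:61731603-61842656 on the minus strand, and had normalized counts of 1676, 1547 and 1519 in N0, 4403, 4759 and 4476 in NAg, 2218, 2188 and 2060.1 in NPI, 1637, 1578 and 1798 in T0, 2059.8, 1874 and 2284 in TAg, and 2750.1, 2427 and 2661 in TPI. The NAg libraries were the highest and overlapped no other group, while the TAg libraries reached little above T0. Ag raised *Hk1* by 1.52 ± 0.08 (adjusted p = 7.30e-15) in naive cells and by 0.31 ± 0.08 (adjusted p = 0.00104) in tolerized cells, a difference in response of -1.21 ± 0.11 (adjusted p = 2.12e-08). The rises with PI were 0.45 ± 0.08 in NPI and 0.65 ± 0.08 in TPI, and these did not differ beyond the test's threshold (0.20 ± 0.11, adjusted p = 0.217). *Hk3*, a hexokinase typical of myeloid cells, had at most 124 normalized counts in any library. It was called in no response and was higher in the tolerized cells in all 3 conditions, by 1.07 ± 0.27 at rest, 0.70 ± 0.27 after Ag and 0.72 ± 0.28 after PI. The neutrophil markers moved in the same direction in those comparisons, and with the erythroid and neutrophil marker scores as covariates *Hk3* at rest was at 1.48 (adjusted p = 0.742).

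The makeup of the hexokinase transcripts changed with stimulation. Per kb of exon, *Hk2* made up 3.86% ± 0.755 of the 3 hexokinases in N0, 21.9% ± 3.33 in NPI and 49.4% ± 4.29 in NAg. In tolerized cells the shares were 9.27% ± 0.442 in T0, 40.9% ± 2.49 in TPI and 72.4% ± 2.08 in TAg. The *Hk1* share fell from 90.3% ± 0.259 to 49.1% ± 4.66 in naive cells and from 80.4% ± 0.198 to 24.9% ± 1.58 in tolerized cells. The tolerized libraries had the larger *Hk2* share in each condition without overlap, but an exact permutation test of 3 against 3 libraries cannot go below p = 0.1, so that none of the 147 comparisons of isozyme shares could pass a threshold of 0.05. The levels in CPM per kb of exon of *Hk1* and *Hk2* were 39 ± 1.61 and 39.8 ± 7.56 in NAg and 17.8 ± 1.76 and 51.6 ± 0.760 in TAg.

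**Figure D3:**
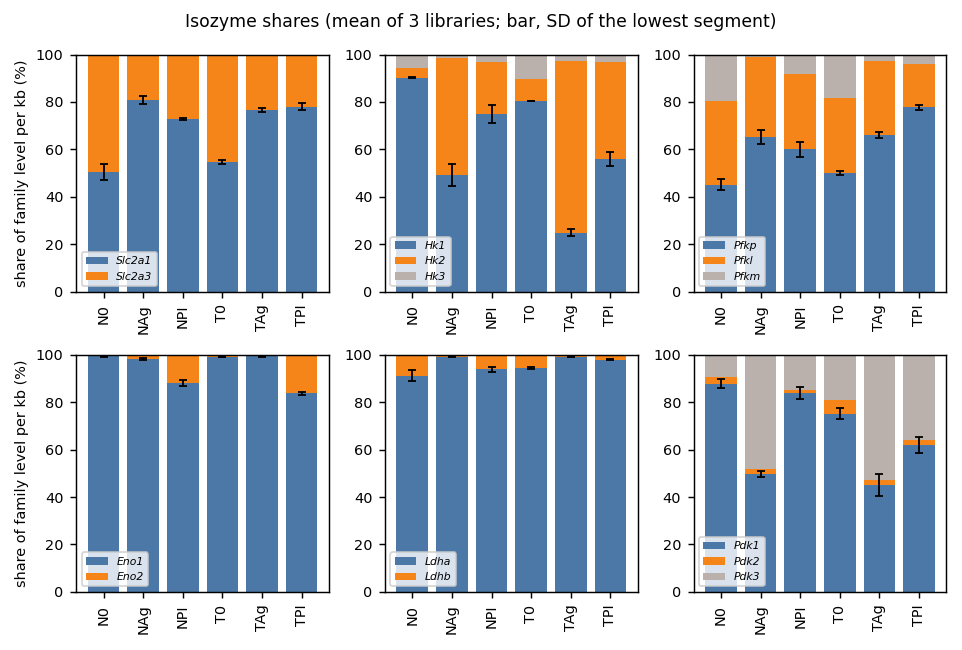
Share of each isozyme in the summed level per kb of exon of the listed members of its family (y axis, percent). Stacked bars give the mean of 3 libraries for the 6 groups (x axis), with the SD of the lowest segment as an error bar. *Hk2* rises from 3.86% in N0 to 72.4% in TAg, and *Pfkm* falls to 1.15% in NAg.

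Among the preparatory steps, the platelet and liver types of phosphofructokinase rose while the muscle type fell. Phosphofructokinase commits sugar to glycolysis. *Pfkp* had normalized counts of 1939.5, 1783 and 1853 in N0, 4067, 4028 and 4175 in NAg, 4368, 4326 and 4471 in NPI, 1882, 1959.9 and 2376 in T0, 4875, 4759.5 and 4505 in TAg, and 8105, 7228 and 7447 in TPI, and every stimulated library lay above every resting one, with TPI highest. It rose by 1.14 ± 0.08 in NAg, 1.19 ± 0.08 in TAg, 1.24 ± 0.08 in NPI and 1.87 ± 0.08 (adjusted p = 2.39e-16) in TPI, and the rise with PI was larger in tolerized cells by 0.63 ± 0.11 (adjusted p = 0.000113). *Pfkl* rose by between 0.43 in TPI and 0.77 in TAg. *Pfkm*, at chr15:97923020-97962878 on the plus strand, had counts of 255, 287 and 252 in N0, 26.4, 23.5 and 20.9 in NAg, 223, 170.4 and 194 in NPI, 216, 227 and 301 in T0, 65, 40.5 and 73.8 in TAg, and 131, 131 and 124 in TPI. The NAg libraries were the lowest and the TAg libraries the next, without overlap with any other group. It fell, with log2 fold changes of -3.48 ± 0.20 (adjusted p = 6.97e-14) in NAg and -2.04 ± 0.17 (adjusted p = 1.73e-10) in TAg, and the fall was smaller in tolerized cells, with a difference of 1.44 ± 0.27 (adjusted p = 0.000376). With PI the changes were -0.43 ± 0.15 in NPI and -0.95 ± 0.15 in TPI. *Pfkm* thus went from 19.8% ± 1.12 of the phosphofructokinase level per kb in N0 to 1.15% ± 0.133 in NAg.

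Of the bifunctional enzymes that set the amount of the allosteric activator of phosphofructokinase, the 2 on the list also parted. *Pfkfb2*, not on the list, fell in all 4 responses. Its log2 fold changes were -1.98 in NAg, -1.01 in TAg, -0.60 in NPI and -0.69 in TPI. *Pfkfb1*, not on the list either, fell with Ag (-1.70 in NAg and -1.27 in TAg) and was not called with PI. *Pfkfb3*, the form with the strongest activating kinase, rose in all 4 responses, by 0.75 ± 0.09 in NAg, 0.73 ± 0.09 in TAg, 0.81 ± 0.09 in NPI and 1.41 ± 0.09 in TPI. Its rise with PI was larger in tolerized cells, by 0.61 ± 0.12 (adjusted p = 0.000688). *Pfkfb4* had counts of 178, 177 and 155 in N0, 43.1, 39.9 and 39.6 in NAg, 148, 142 and 129 in T0, and 51.7, 47.7 and 100.4 in TAg, and its Ag libraries lay below the resting ones in both states. It fell, with log2 fold changes of -2.05 ± 0.21 in NAg, -1.06 ± 0.20 in TAg and -0.61 ± 0.19 in TPI, whereas NPI against N0 gave 0.11 ± 0.18 (adjusted p = 0.639). TAg replicate 3 stood above the other TAg libraries, and without it the difference between TAg and NAg was 0.283 on the log2 scale (adjusted p = 0.307) and the interaction 0.565 (adjusted p = 0.11).

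Of the remaining preparatory genes, aldolase A rose everywhere and triose phosphate isomerase in TAg alone among the 4 responses. *Aldoa*, which splits the sugar bisphosphate, rose by 0.83 ± 0.07 in NAg, 1.27 ± 0.07 in TAg, 0.67 ± 0.07 in NPI and 1.15 ± 0.07 in TPI. *Tpi1*, which interconverts the resulting triose phosphates and lies at chr6:124760604-124764314 on the minus strand, had counts of 255, 188 and 212 in N0, 246, 193 and 192 in NAg, 204, 189 and 200.3 in NPI, 252, 257 and 320.3 in T0, 531, 529 and 528 in TAg, and 180.2, 176 and 184 in TPI. The TAg libraries lay close to each other and above every other library. *Tpi1* rose by 0.94 ± 0.11 (adjusted p = 1.16e-07) in TAg, NAg against N0 gave -0.06 ± 0.12 (adjusted p = 0.709), and the responses differed by 0.99 ± 0.17 (adjusted p = 0.000117). With PI it fell in tolerized cells, to -0.62 ± 0.12 on the log2 scale relative to T0. *Gpi1*, the isomerase of glucose phosphate, rose only in NPI among the 4 responses (0.40 ± 0.07), and a test of that difference gave -0.27 ± 0.10 (adjusted p = 0.0628). *Aldoc*, the brain type of aldolase, was counted at a low level and was lower in NAg (-1.09 ± 0.45, adjusted p = 0.0363).

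**Figure D4:**
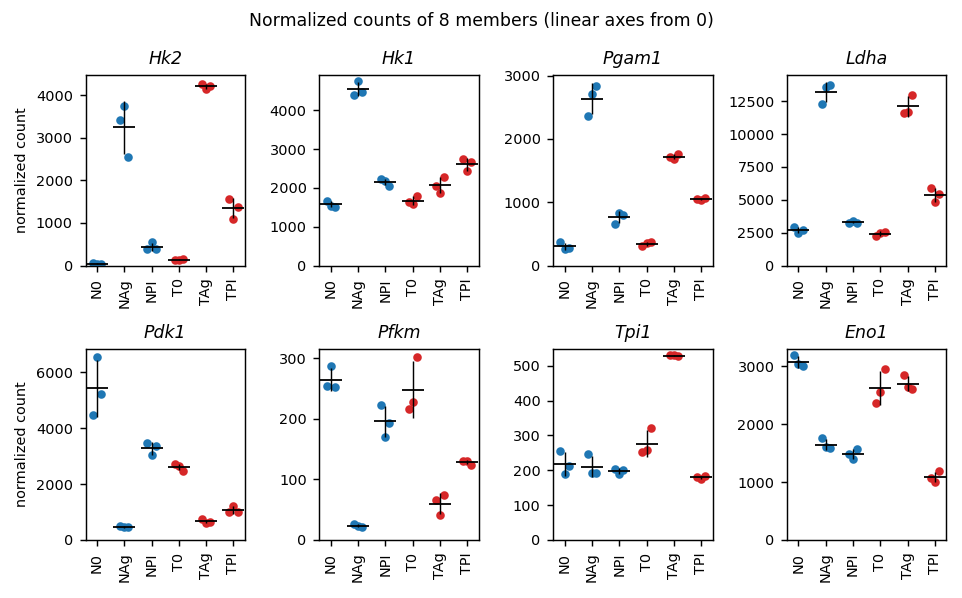
Normalized counts of *Hk2*, *Hk1*, *Pgam1*, *Ldha*, *Pdk1*, *Pfkm*, *Tpi1* and *Eno1* (y axes, linear from 0) in the 6 groups (x axis), with the 3 libraries of a group as points, their mean as a horizontal line and the SD as a vertical line. *Hk1* stands highest in NAg, *Tpi1* in TAg and *Pdk1* in N0.

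In the payoff steps 5 of 6 members rose in naive cells with either stimulus, and 1, *Eno1*, fell. Of all genes tested, 32.1% were higher and 33.4% lower in NAg, and 28.6% and 32.7% in NPI. In tolerized cells 4 rose and 0 fell with Ag (29.9% and 29.8% of all genes). With PI 5 rose and 1 fell there (31.9% and 36.3%). *Pgam1*, phosphoglycerate mutase, lies at chr19:41986361-41993154 on the plus strand, and had counts of 366, 268 and 278 in N0, 2358, 2713 and 2839 in NAg, 658, 837 and 795 in NPI, 309, 352 and 370.2 in T0, 1714, 1685 and 1762 in TAg, and 1053, 1039 and 1064 in TPI. Its 6 groups fell in the order N0, T0, NPI, TPI, TAg and NAg, where only N0 and T0 overlapped. It rose by 3.12 ± 0.11 (adjusted p = 1.00e-17) in NAg and 2.32 ± 0.11 (adjusted p = 2.36e-15) in TAg, and the rise was smaller in tolerized cells, with an interaction of -0.79 ± 0.15 (adjusted p = 0.000356). *Pgk1*, which makes ATP from bisphosphoglycerate, rose by 1.52 ± 0.08 in NAg and 1.49 ± 0.08 in TAg but by only 0.19 ± 0.08 (adjusted p = 0.0407) in NPI, where its libraries overlapped those of N0, and by 0.49 ± 0.08 in TPI. *Gapdh*, often taken as a constant reference, rose by 0.92 ± 0.08 in NAg, 0.86 ± 0.08 in TAg, 1.12 ± 0.08 in NPI and 1.04 ± 0.08 in TPI. *Pkm2*, the pyruvate kinase gene now called *Pkm*, had the highest mean level per kb of all members in each group. It was 123 ± 8.93 CPM per kb in N0 and 467 ± 36.5 in NAg. Levels per kb use the whole exon length, with no correction for sequence copied elsewhere in the genome. The rises of *Pkm2* were 1.93 ± 0.09 (adjusted p = 2.72e-15) in NAg, 1.45 ± 0.09 (adjusted p = 7.89e-13) in TAg, 0.62 ± 0.09 in NPI and 1.08 ± 0.09 in TPI. Counts per gene do not tell its splice forms apart.

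The 2 listed enolase genes moved apart. *Eno1*, the main enolase of most cells, lies at chr4:149610830-149622988 on the plus strand, and had counts of 3193, 3036 and 2999 in N0, 1756, 1599 and 1589 in NAg, 1493, 1403 and 1573 in NPI, 2369.6, 2554 and 2954 in T0, 2851, 2639.7 and 2616 in TAg, and 1078, 1003 and 1183 in TPI. The NAg, NPI and TPI libraries lay below all resting libraries, and the TAg libraries lay among those of T0. *Eno1* fell, with log2 fold changes of -0.90 ± 0.08 (adjusted p = 3.61e-10) in NAg, -1.05 ± 0.08 in NPI and -1.27 ± 0.08 in TPI, whereas TAg against T0 gave 0.04 ± 0.08 (adjusted p = 0.678). Naive and tolerized responses to Ag differed by 0.94 ± 0.11 (adjusted p = 1.80e-06). *Eno2*, the neuronal enolase, was low at rest and rose with PI. Its counts were 11.9, 15.7 and 18.8 in N0, 28.8, 18.8 and 30.8 in NAg, 156, 188 and 178 in NPI, 17.7, 18.5 and 21.1 in T0, 15.4, 13.1 and 16.4 in TAg, and 176, 177 and 200.4 in TPI, and the PI libraries lay far above all others. The rise was 3.48 ± 0.20 (adjusted p = 2.41e-13) in NPI and 3.27 ± 0.19 (adjusted p = 1.63e-13) in TPI. After Ag it rose in naive cells by 0.75 ± 0.24 (adjusted p = 0.00898), and that call was lost without N0 replicate 1 (adjusted p = 0.0962) or NAg replicate 3 (adjusted p = 0.0723). Per kb, *Eno2* made up 0.574% ± 0.145 of the sum of these 2 genes in N0 and 11.8% ± 1.34 in NPI. In tolerized cells it made up 0.827% ± 0.0183 in T0 and 16.2% ± 0.511 in TPI, so that *Eno1* remained the larger of the 2. The enolase gene *Eno3* was not on the list and was left out of these shares. Its mean normalized count was 160 in N0 and 173 in NPI.

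Among the genes of lactate metabolism, *Ldha* rose strongly with Ag, and more with PI in tolerized than in naive cells. *Ldha* encodes the muscle subunit of lactate dehydrogenase, lies at chr7:54096845-54110997 on the plus strand, and had counts of 2971, 2480.4 and 2678 in N0, 12305, 13544 and 13695 in NAg, 3229, 3402 and 3254 in NPI, 2248, 2445 and 2587 in T0, 11619, 11681 and 13000 in TAg, and 5905, 4852 and 5423 in TPI. All stimulated libraries lay above the resting ones, and the Ag libraries above the PI libraries. The rise was 2.28 ± 0.09 (adjusted p = 2.27e-17) in NAg, 2.32 ± 0.09 (adjusted p = 3.32e-17) in TAg, 0.28 ± 0.08 (adjusted p = 0.00476) in NPI and 1.15 ± 0.08 (adjusted p = 9.60e-12) in TPI. The responses to PI differed by 0.87 ± 0.12 (adjusted p = 7.97e-06) and those to Ag by 0.04 ± 0.12 (adjusted p = 0.88). The small rise in NPI was lost without N0 replicate 2 (0.175, adjusted p = 0.0989) and with the Y-linked reads as a covariate (adjusted p = 0.0621). *Ldhb*, the heart subunit, had counts of 105, 139 and 168 in N0, 46.7, 36.4 and 58.3 in NAg, 61, 80.4 and 77.7 in T0, and 50.6, 35.8 and 47.1 in TAg. It fell with Ag, with log2 fold changes of -1.53 ± 0.21 in naive and -0.71 ± 0.22 in tolerized cells, and PI gave -0.29 ± 0.19 (adjusted p = 0.198) and -0.32 ± 0.21 (adjusted p = 0.174).

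The 2 lactate exporters parted after Ag. *Slc16a1* encodes MCT1, lies at chr3:104442591-104462385 on the plus strand, and had counts of 383, 386 and 404 in N0, 6488, 6658 and 7056 in NAg, 2960.4, 3158 and 3258 in NPI, 332, 301 and 366 in T0, 4292, 4427 and 5116 in TAg, and 4467, 4249 and 3791 in TPI. Stimulated libraries exceeded every resting library, with NAg highest. The rises were 4.11 ± 0.09 (adjusted p = 3.27e-21), or 17.2-fold, in NAg, 3.79 ± 0.09 (adjusted p = 2.04e-20) in TAg, 3.0 ± 0.09 in NPI and 3.65 ± 0.09 in TPI. The rise with PI was larger in tolerized cells, by 0.65 ± 0.12 (adjusted p = 0.000321). *Slc16a3* encodes MCT4 and was counted at a low level, 52.5, 28.2 and 31.7 in N0, 33.6, 11.7 and 16.5 in NAg, 85.3, 75.9 and 90.8 in NPI, 81.4, 83.9 and 77.7 in T0, 18.7, 27.4 and 55.3 in TAg, and 85.6, 93.3 and 97.3 in TPI. It fell with Ag, with log2 fold changes of -0.87 ± 0.36 (adjusted p = 0.0397) in naive cells, whose libraries overlapped, and -1.24 ± 0.31 (adjusted p = 0.00141) in tolerized cells, and it rose in NPI by 1.16 ± 0.30 (adjusted p = 0.00217).

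Of the 3 pyruvate dehydrogenase kinases, *Pdk1* and *Pdk2* fell in all 4 responses. *Pdk1*, at chr2:71711281-71741915 on the plus strand, had counts of 4491, 6542 and 5246 in N0, 514, 446 and 466 in NAg, 3477, 3028 and 3347 in NPI, 2702, 2649 and 2474 in T0, 731, 603 and 644 in TAg, and 1003, 1223 and 996 in TPI. The groups fell in the order N0, NPI, T0, TPI, TAg and NAg without overlap between any of them. Ag lowered *Pdk1*, with log2 fold changes of -3.51 ± 0.13 (adjusted p = 1.18e-15), or 11.4-fold, in naive cells and -1.98 ± 0.12 (adjusted p = 7.98e-12) in tolerized cells, and PI lowered it, with changes of -0.72 ± 0.11 and -1.28 ± 0.11. Both responses differed between the cell states, the one to Ag by 1.53 ± 0.17 (adjusted p = 1.81e-06) and the one to PI by -0.56 ± 0.16 (adjusted p = 0.0154). *Pdk2* had counts of 59.4, 86.6 and 71.4 in N0, 12, 5.87 and 5.50 in NAg, 12.5, 17.6 and 33.1 in NPI, 90.2, 71.5 and 89.2 in T0, 12.1, 10.7 and 13.3 in TAg, and 11.3, 9.88 and 22.5 in TPI, with all stimulated libraries below all resting ones. It fell, with log2 fold changes of -3.21 ± 0.37 in NAg, -2.78 ± 0.33 in TAg, -1.74 ± 0.30 in NPI and -2.47 ± 0.31 in TPI. With the marker scores as covariates the call in TPI was lost (-2.19, adjusted p = 0.2). *Pdk3* was called in no response, with NAg against N0 at -0.26 ± 0.12 (adjusted p = 0.056) and TAg against T0 at 0.24 ± 0.11 (adjusted p = 0.0676). Leaving out N0 replicate 1 or 2 made the naive fall a call (adjusted p = 0.0374 and 0.0142), and leaving out TAg replicate 1 did so for the tolerized rise (adjusted p = 0.0397). Per kb, *Pdk1* made up 87.9% ± 1.92 of the 3 kinases in N0 and 49.7% ± 1.36 in NAg.

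Both branch enzymes fell with Ag. *Bpgm*, which diverts bisphosphoglycerate, fell, with log2 fold changes of -1.87 ± 0.18 (adjusted p = 1.16e-09) in NAg and -1.62 ± 0.17 (adjusted p = 7.95e-09) in TAg, and with PI of -0.42 ± 0.15 in TPI, while NPI gave 0.07 ± 0.15 (adjusted p = 0.73). *Pgm2* (chromosome 4, *Pgm1* in the current RefSeq naming), a phosphoglucomutase that links glycolysis with glycogen, had counts of 180.3, 264 and 230.1 in N0, 110.3, 115 and 100.1 in NAg, 149.8, 125 and 126 in NPI, 235, 255 and 284 in T0, 178, 156 and 207 in TAg, and 107, 95.5 and 102 in TPI. It fell in all 4 responses, with log2 fold changes of -1.05 ± 0.14 in NAg, -0.51 ± 0.14 in TAg, -0.75 ± 0.14 in NPI and -1.34 ± 0.14 in TPI. Within each cell state, every stimulated library lay below every resting one.

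Of the 7 pentose phosphate genes, more rose than fell with Ag and more fell than rose with PI, a difference between stimuli that was not tested. With Ag, 4 rose and 1 fell in naive cells (32.1% and 33.4% of all genes) and 5 rose and 1 fell in tolerized cells (29.9% and 29.8%). With PI, 1 rose and 4 fell in naive cells (28.6% and 32.7%), and 0 rose and 4 fell in tolerized cells (31.9% and 36.3%). *Pgd*, the phosphogluconate dehydrogenase that yields NADPH and ribulose phosphate, had counts of 721, 664 and 689 in N0, 941, 1149 and 1229.6 in NAg, 399, 386 and 387 in NPI, 653, 618 and 669 in T0, 1122, 1136 and 1119.8 in TAg, and 284, 299 and 312 in TPI. The Ag libraries lay above and the PI libraries below all resting libraries. It rose by 0.68 ± 0.08 (adjusted p = 7.07e-08) in NAg and 0.80 ± 0.08 (adjusted p = 5.64e-09) in TAg, and fell, with changes of -0.82 ± 0.08 (adjusted p = 8.43e-09) in NPI and -1.12 ± 0.09 (adjusted p = 3.06e-11) in TPI. *Rpe*, the epimerase of ribulose phosphate, did the same, with rises of 0.51 ± 0.08 and 0.30 ± 0.08 and changes with PI of -0.51 ± 0.08 and -0.74 ± 0.08.

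*Tkt*, the transketolase of the non-oxidative branch, had counts of 1120.3, 1088 and 1040.3 in N0, 2889.6, 3125 and 3009 in NAg, and 974, 1102 and 1113 in NPI and of 1118, 1102 and 1213 in T0, 2815, 2830.4 and 3136 in TAg, and 1020.4, 1031 and 1171 in TPI. The Ag libraries were far above all others, which overlapped. Its rises were 1.47 ± 0.07 (adjusted p = 7.41e-15) in NAg and 1.35 ± 0.07 (adjusted p = 5.52e-14) in TAg, against -0.03 ± 0.07 (adjusted p = 0.777) in NPI and -0.09 ± 0.07 (adjusted p = 0.286) in TPI. *Rpia*, the isomerase that makes ribose phosphate, rose by 1.18 ± 0.08 in NAg, 0.89 ± 0.08 in TAg and 0.28 ± 0.08 (adjusted p = 0.00325) in NPI. *Taldo1*, the transaldolase, fell in all 4 responses, with log2 fold changes of -1.0 ± 0.09 in NAg, -0.36 ± 0.09 in TAg, -0.95 ± 0.09 in NPI and -1.19 ± 0.09 in TPI, and the call in TPI was lost with the marker scores as covariates (-0.508, adjusted p = 0.194). *G6pdx*, which carries out the entry step of the pathway, was not called with Ag, at -0.15 ± 0.09 (adjusted p = 0.142) in NAg and 0.15 ± 0.09 (adjusted p = 0.14) in TAg. It fell with PI, with log2 fold changes of -0.66 ± 0.09 and -0.59 ± 0.09. *Pgls*, the lactonase, rose in TAg by 0.53 ± 0.09 (adjusted p = 2.79e-05).

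At rest 11 members differed between tolerized and naive cells. Of the 36 members, 5 were higher in T0 (8.42% of all genes tested) and 6 lower (12% of all genes), and the median log2 fold change was -0.00275. With the limits of fold and mean count 3 were higher (2.61% of all genes) and 1 lower (0.644%). *Hk2*, *Hk3*, *Slc16a3*, *Tpi1* and *G6pdx* were higher, and *Pdk1*, *Ldhb*, *Aldoa*, *Rpe*, *Eno1* and *Pgk1* were lower. The log2 fold change was -1.06 ± 0.11 (adjusted p = 2.65e-06) for *Pdk1* and -0.91 ± 0.20 (adjusted p = 0.00194) for *Ldhb*, both without overlap between the libraries. *Slc16a3* was higher by 1.11 ± 0.30 (adjusted p = 0.0124), *Hk3* by 1.07 ± 0.27 (adjusted p = 0.00826) and *Hk2* by 1.49 ± 0.25. The other 6 differed by at most 0.34 on the log2 scale, that of *Tpi1*, with adjusted p between 0.0151 for *G6pdx* and 0.0496 for *Pgk1*. *Hk2*, *Hk3*, *Pdk1* and *Ldhb* kept their calls with each library left out in turn. With Y-linked reads as a covariate the calls of *Slc16a3* (0.726, adjusted p = 0.186) and *Hk3* (0.939, adjusted p = 0.0714) were lost. The count of higher members fell to 3 without N0 replicate 2 or T0 replicate 3 and to 2 without N0 replicate 3, and that of lower members to 3 without N0 replicate 1, 2 or 3 or T0 replicate 2 and to 2 without T0 replicate 1. With the erythroid and neutrophil marker scores as covariates 0 members were higher and 0 lower (*Hk2* 2.14, adjusted p = 0.516, and *Pdk1* -0.722, adjusted p = 0.711), a fit in which the score and the cell state cannot be told apart well, since the neutrophil sums of the groups do not overlap.

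**Figure D5:**
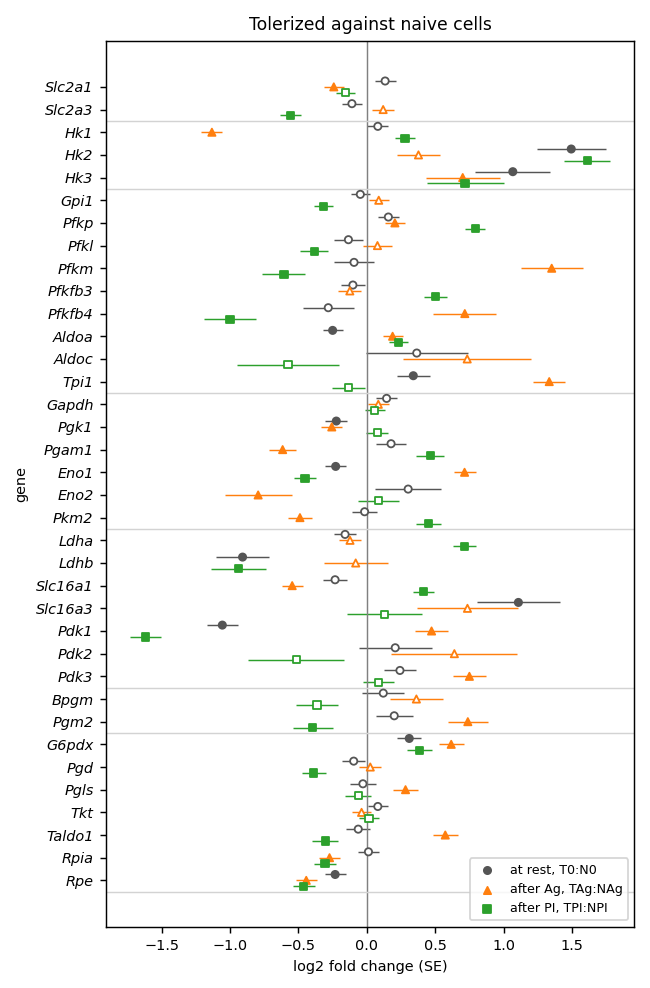
Log2 fold change with its standard error of tolerized against naive cells for each of the 36 members at rest (T0:N0), after Ag (TAg:NAg) and after PI (TPI:NPI), filled where the adjusted p was under 0.05. Differences at rest cluster near 0, with *Hk2*, *Slc16a3*, *Hk3* and *Pdk1* farthest out. More members pass this threshold after stimulation, as do more of all genes tested.

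At the p threshold alone the cell states differed in more members after Ag than at rest, as they did in more of all genes tested. With the limits of fold and mean count, 3 members were higher and 1 lower at rest, against 2 and 1 after Ag. In TAg 13 were higher than in NAg (20.9% of all genes) and 9 lower (18.5%), and *Pfkm* and *Tpi1* (2, against 3.61%) and *Hk1* (1, against 2.05%) also met the limits of fold and mean count. *Pfkm* (1.35 ± 0.23, adjusted p = 4.30e-05), *Tpi1* (1.33 ± 0.12, adjusted p = 6.31e-09), *Pdk3* (0.75 ± 0.12, adjusted p = 2.09e-05), *Pgm2* (0.74 ± 0.15, adjusted p = 0.000308) and *Pfkfb4* (0.72 ± 0.23, adjusted p = 0.0162) had the largest positive differences. *Hk1* (-1.13 ± 0.08, adjusted p = 6.01e-11), *Eno2* (-0.79 ± 0.25, adjusted p = 0.0143), *Pgam1* (-0.62 ± 0.10, adjusted p = 2.39e-05), *Slc16a1* (-0.55 ± 0.08, adjusted p = 6.20e-06) and *Pkm2* (-0.49 ± 0.09, adjusted p = 0.000125) had the largest negative ones. Among the payoff genes 4 of 6 were lower in TAg, and among the preparatory genes 5 of 9 were higher and 0 lower. *Ldha*, *Gapdh* and *Tkt* were not called between TAg and NAg, at -0.12 ± 0.08, 0.08 ± 0.08 and -0.04 ± 0.07. The calls of *Eno2* were lost without NAg replicate 1 (adjusted p = 0.0545), NAg replicate 3 (adjusted p = 0.1) or TAg replicate 2 (adjusted p = 0.0548). With the marker scores as covariates *Hk1* (-1.13, adjusted p = 0.00949) and *Pgam1* (-1.26, adjusted p = 0.0204) were lower and 0 members higher, and all 11 neutrophil markers were higher in TAg.

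The response to Ag itself differed between cell states for 14 members. The change was more positive in tolerized cells for 8 of 36 (14.6% of all genes) and more negative for 6 (7.09%), and 2 (3.06%) and 3 (2.41%) of these differed at least 2-fold with a mean above 50. Of the 8, *Pdk1*, *Pfkm*, *Pfkfb4* and *Taldo1* fell less in tolerized cells, *Aldoa* rose more (0.44 ± 0.10, adjusted p = 0.00314), *Tpi1* rose in tolerized cells alone, *Eno1* fell in naive cells alone, and *Pdk3* was called in neither state. Of the 6, *Hk1*, *Hk2*, *Pgam1*, *Pkm2* (-0.47 ± 0.13, adjusted p = 0.00885) and *Slc2a1* (-0.38 ± 0.11, adjusted p = 0.0123) rose less in tolerized cells, and *Eno2* was called in naive cells only. For *Hk2* the interaction of -1.12 ± 0.30 (adjusted p = 0.0152) stood beside a higher resting level in T0 and no call between TAg and NAg. It was lost without N0 replicate 2 (adjusted p = 0.0576) or N0 replicate 3 (adjusted p = 0.0565). That of *Slc2a1* was lost without N0 replicate 3 (adjusted p = 0.061), and those of *Eno2* and *Pdk3* without any 1 of 5 and 4 libraries. With the marker scores as covariates 8 and 5 members were called.

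The cell states also differed after PI. In TPI 11 were higher than in NPI (18.2% of all genes) and 13 lower (19.7%), of which *Hk2* (1, against 3.38%) and *Pdk1* (1, against 2.22%) met the limits of fold and mean count. *Hk2* was followed by *Pfkp* (0.79 ± 0.07, adjusted p = 1.20e-08), *Hk3* (0.72 ± 0.28, adjusted p = 0.0494), *Ldha* (0.71 ± 0.08, adjusted p = 2.67e-07) and *Pfkfb3* (0.50 ± 0.08, adjusted p = 3.43e-05). *Pdk1* (-1.62 ± 0.11, adjusted p = 1.64e-09) was followed by *Pfkfb4* (-1.0 ± 0.19, adjusted p = 0.000159), *Ldhb* (-0.94 ± 0.20, adjusted p = 0.000611), *Pfkm* (-0.61 ± 0.16, adjusted p = 0.00334) and *Slc2a3* (-0.56 ± 0.08, adjusted p = 2.47e-06). All 3 hexokinases were higher in TPI, and 4 of 7 pentose phosphate genes were lower. The call of *Hk3* was lost without NPI replicate 1 or 3 or TPI replicate 1 or 3, with the replicate block and with DESeq2. With the marker scores as covariates 3 members were higher and 7 lower, *Hk2* at 1.92 (adjusted p = 0.00449) and *Pdk1* at -1.44 (adjusted p = 0.00131) among them.

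The responses to PI differed for 10 members, with 6 more positive (12.7% of all genes) and 4 more negative (7.52%) in tolerized cells, and 0 met the limits of fold and mean count in either direction (1.79% and 1.5% of all genes). *Pfkp*, *Pfkfb3*, *Aldoa* (0.48 ± 0.10, adjusted p = 0.00147), *Pkm2* (0.47 ± 0.13, adjusted p = 0.0106), *Ldha* and *Slc16a1* rose more in tolerized cells. *Pdk1* and *Pgm2* (-0.59 ± 0.20, adjusted p = 0.0351) fell more in tolerized cells. *Slc2a3* (-0.45 ± 0.11, adjusted p = 0.00373) and *Rpia* (-0.32 ± 0.11, adjusted p = 0.0463) rose in naive cells only. The difference for *Pgm2* did not pass without any 1 of 8 libraries, nor that for *Rpia* without any 1 of 11. Only 2 members were more negative without N0 replicate 3, NPI replicate 1, T0 replicate 2, T0 replicate 3 or TPI replicate 1. *Pkm2* stood in both sets with opposite signs, its rise being smaller in tolerized cells with Ag and larger with PI, and *Pdk1* likewise fell less with Ag and more with PI. *Aldoa* rose more in tolerized cells with both stimuli. The tolerized cells of these contrasts share the T0 libraries and the naive cells the N0 libraries.

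Only *Hk3* and *G6pdx* were higher in tolerized cells in all 3 conditions, and only *Rpe* was lower in all 3. For *Hk3* the libraries of the cell states overlapped after Ag (adjusted p = 0.045) and after PI (adjusted p = 0.0494). *G6pdx* had counts of 354, 383 and 330.2 in N0, 308, 316 and 334 in NAg, 223, 212 and 239 in NPI, 426, 422 and 474 in T0, 474, 488 and 507 in TAg, and 317, 271 and 291 in TPI. Its tolerized libraries lay above the naive ones in each condition without overlap, by 0.31 ± 0.09 (adjusted p = 0.0151) at rest, 0.62 ± 0.09 (adjusted p = 8.45e-06) after Ag and 0.38 ± 0.09 (adjusted p = 0.00186) after PI. At rest the call was lost without N0 replicate 3 (adjusted p = 0.0863) or T0 replicate 3 (adjusted p = 0.0582). With the marker scores as covariates *G6pdx* at rest was at 0.3 (adjusted p = 0.87), and 0 members were higher in TAg than NAg. *Rpe* was lower, with log2 fold changes of -0.23 ± 0.08 (adjusted p = 0.0362), -0.44 ± 0.08 (adjusted p = 7.13e-05) and -0.46 ± 0.08 (adjusted p = 6.08e-05), and its call at rest was lost without N0 replicate 2 (adjusted p = 0.118) or T0 replicate 1 (adjusted p = 0.104). It was lost as well with DESeq2 (adjusted p = 0.0554), its size factors in edgeR (0.0518), no filter on low counts (0.057), only the groups compared (0.142), Y-linked reads (0.219) and the marker scores (0.787).

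Some members share sequence with copies or overlap other genes, which makes their counts uncertain. Of windows of 75 bases along their exons, some occurred again elsewhere in the genome (mm9) for 16 members, and none did for the other 20. The copied share was 87.3% for *Pgam1*, 62.1% for *Pgk1*, 46.6% for *Gapdh*, 26.9% for *Pkm2*, 16.8% for *Ldhb* and 15.4% for *Eno1*, and lower for the rest, including 9.98% for *Tpi1*. The copies themselves received few reads, at most 8 for that of *Pgam1*, 6 for that of *Eno1* and 92 for that of *Pkm2* in any library. How the authors' counting divided such reads was not tested. If reads that match several places were left uncounted, the copies would receive few reads whatever the members lost. The low counts of the copies therefore cannot show how many reads the members lost. Exons of 12 members overlap another gene, among them *Slc16a3* (831 bp with *Csnk1d*), *Pgls* (776 bp with *Fam129c*, on the same strand), *Gpi1* (741 bp with *Gm17327*), *Rpe* (563 bp), *G6pdx* (418 bp with *Ikbkg*), *Pgm2* (398 bp with *Itgb3bp*) and *Pfkp* (372 bp with *Pitrm1*). Smaller overlaps were found for *Slc2a1* (105 bp), *Hk1* (157 bp), *Hk3* (34 bp), *Tpi1* (34 bp) and *Tkt* (1 bp), and whether reads were counted by strand is not given in the sources used here.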

How the data were processed

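CD4 T cells of 6 groups of Tg4 mice were profiled by RNA-seq, with 3 libraries per group. The authors aligned paired-end reads to mm9 with TopHat2 2.1.1, counted them on Ensembl gene models with HTSeq 0.9.1 and deposited raw counts per gene, without normalization or pooling. The handling of strand and overlaps is not given in the sources used here. Identifiers were matched to an NCBIM37 annotation (37205 of 37991 genes). The median library held 12268936 counts.

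Statistics were computed in R 4.3.3 using edgeR 4.0.16, and DESeq2 1.42.0 as an alternative. Normalized counts are counts scaled by TMM library size to the geometric mean library. Genes whose group mean reached 3 normalized counts in any group entered 1 model of all 18 libraries and edgeR's robust quasi-likelihood test, and every adjusted p is a Benjamini-Hochberg value from it over 17240 genes unless another tool is named. A call is an adjusted p under 0.05. Differences between responses were interaction contrasts. Isozyme shares used counts per kb of exon and a two-sided exact permutation test. The fits were tested on simulated data.

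The members, marker lists and pathway list were chosen with earlier results of these data known. In each comparison the 5 largest called rises and falls, all interaction calls and members with copies or overlaps are named with values, and of other pathway genes the 2 largest called rises and falls. Genes further named were chosen after their values were seen. Alternatives were DESeq2, its size factors in edgeR, no count filter, a replicate block, only the groups compared, the study's limits, both tools together, marker scores (erythroid and neutrophil) or Y-linked reads as covariates, shares not divided by exon length, the summed share over TMM-scaled library sizes (chosen after the data were seen), and each library left out.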

Additional observations from a re-analysis of the deposited data

Results flagged for a closer look

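The response to a stimulus differed between tolerized and naive cells for the members below, by a test of the difference itself (edgeR's interaction contrast, adjusted over all 17240 genes). A positive value is a more positive log2 fold change in tolerized cells.

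With Ag the difference was -0.375 for *Slc2a1*, -1.21 for *Hk1* and -1.12 for *Hk2*, so that their fold rises were smaller in tolerized cells. For *Hk2* the mean normalized count was 135 in T0 against 47.6 in N0, and 4208 in TAg against 3242 in NAg. The *Hk2* difference no longer passed without N0 replicate 2 or N0 replicate 3. Among the preparatory genes the difference was 1.44 for *Pfkm*, 0.998 for *Pfkfb4*, 0.438 for *Aldoa* and 0.993 for *Tpi1*, all positive. Among the payoff genes it was -0.792 for *Pgam1*, 0.942 for *Eno1*, -1.1 for *Eno2* and -0.472 for *Pkm2*. It was 1.53 for *Pdk1* and 0.507 for *Pdk3*, and 0.636 for *Taldo1*. The adjusted p was smallest for *Hk1* (2.12e-08) and largest for *Eno2* (0.0292). That of *Eno2* no longer passed with DESeq2 (adjusted p = 0.0589), only the groups compared (0.0905) or the marker scores (0.0926), nor that of *Pdk3* with DESeq2 (0.0701) or no filter on low counts (0.051).

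With PI the difference was 0.634 for *Pfkp*, 0.606 for *Pfkfb3*, 0.481 for *Aldoa*, 0.465 for *Pkm2*, 0.871 for *Ldha* and 0.648 for *Slc16a1*, all genes that rose more in tolerized cells. It was -0.448 for *Slc2a3*, -0.559 for *Pdk1*, -0.594 for *Pgm2* and -0.317 for *Rpia*. The adjusted p was smallest for *Ldha* (7.97e-06) and largest for *Rpia* (0.0463). Naive PI libraries differ from N0 in Y-linked reads as well as in the stimulus, and with these reads as a covariate *Pdk1* (adjusted p = 0.0609) and *Pgm2* (adjusted p = 0.0793) no longer passed.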

How the results depend on the processing

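With the limits of fold and mean count the members called higher and lower numbered 11 and 7 in NAg:N0, 9 and 6 in TAg:T0, 8 and 2 in NPI:N0, 11 and 6 in TPI:T0, 3 and 1 in T0:N0, 2 and 1 in TAg:NAg, 1 and 1 in TPI:NPI, 2 and 3 in the Ag interaction and 0 and 0 in the PI interaction, fewer because these limits also require a fold. With the marker scores as covariates the counts moved to 4 lower in TPI:T0, 0 and 0 in T0:N0, 0 and 2 in TAg:NAg, 3 and 7 in TPI:NPI and 0 lower in the PI interaction. With only the groups compared, 2 members were lower in T0:N0 and 15 in the PI interaction. With Y-linked reads as a covariate 3 were lower in T0:N0, and with both edgeR and DESeq2 2 were lower in the PI interaction. Without *Gapdh*, *Eno1* and *Ldha* the summed shares were 0.253, 0.392, 0.232, 0.242, 0.386 and 0.241% in N0, NAg, NPI, T0, TAg and TPI, lower because fewer genes are summed, and over TMM-scaled library sizes (chosen after the data were seen) they were 0.261, 0.556, 0.345, 0.235, 0.501 and 0.394%, so that those of NPI and TPI turned to lie above N0 and T0. With each library left out the counts ranged from 2 to 6 (higher) and 2 to 7 (lower) in T0:N0 and from 2 to 5 (lower) in the PI interaction, and no other count moved by more than 1.5 times. Of 138 named log2 fold changes, 94 kept direction and side of the threshold with the marker scores, and 126 or more under each other setting. Reversals were *Slc16a3* (-0.236) and *Tpi1* (-0.336) in T0:N0 and *Aldoa* (-0.0995) and *Taldo1* (-0.0364) in TAg:NAg with the marker scores, *Eno1* in TAg:T0 (-0.00936 with Y-linked reads, -0.0633 to 0.104 with libraries left out), *Rpia* in TPI:T0 (0.00203 with DESeq2, 0.00357 with its size factors, 0.205 with the marker scores, -0.0918 to 0.0209 with libraries left out), *Tpi1* in NAg:N0 (-0.204 to 0.0194) and *Slc2a3* in TPI:T0 (-0.00792 to 0.117). The *Pfkp* share in TAg:NAg ranged from -0.572 to 2.38 percentage points, negative only without NAg replicate 2. The cause was not tested except where stated.

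Equal replicate numbers did not pair the libraries, since deviations from the group means correlated at a median of -0.0154 over 45 pairs of equal number (lowest -0.195, highest 0.11) and of 0.00917 over 90 other pairs. With the replicate number as a block, the members called higher and lower numbered 19 and 12 in NAg:N0, 12 and 9 in TAg:NAg and 10 and 13 in TPI:NPI. The other counts did not move, among them 5 and 6 in T0:N0, and 2 of 138 named calls were lost. With 3 libraries a group, genes of low count such as *Aldoc*, *Pdk2* and *Slc16a3* carry the largest errors.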

Other observations

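The wider pathway was followed with 66 further genes of sugar uptake, gluconeogenesis, glycerol and pyruvate metabolism and its regulators, of which 62 were matched and 45 passed the minimum count. Ag raised 20 and lowered 18 of the 45 in naive cells (32.1% and 33.4% of all genes tested) and raised 17 and lowered 12 in tolerized cells (29.9% and 29.8%). PI raised 14 and lowered 19 in naive (28.6% and 32.7%) and raised 13 and lowered 20 in tolerized cells (31.9% and 36.3%). *Myc*, a transcription factor that drives growth and sugar metabolism, rose most in all 4 responses, by 5.34 ± 0.12 (log2, SE) in NAg, 4.65 ± 0.11 in TAg, 4.58 ± 0.11 in NPI and 5.09 ± 0.11 in TPI (edgeR's quasi-likelihood test, largest adjusted p = 3.63e-20 in NPI). *Hif1a*, the regulated subunit of a hypoxia-inducible factor, rose by 3.39 ± 0.12 in NAg, 2.70 ± 0.12 in TAg and 3.02 ± 0.12 in TPI. Its mean normalized count was 6194 in NPI against 1733 in N0. *Txnip*, which restrains glucose uptake, fell, with log2 fold changes of -3.38 ± 0.32 in NAg and -2.75 ± 0.31 in TPI. Its mean normalized count was 5308 in NPI against 9982 in N0. The uric acid and sugar transporter gene *Slc2a9* fell as well (-3.18 ± 0.22 in NAg and -2.37 ± 0.20 in TAg), and *Slc2a8* did in TAg (-2.44 ± 0.33). *Slc2a6* rose in NPI by 2.0 ± 0.39, and *Galm*, the mutarotase of aldoses, fell there (-1.85 ± 0.22). *Tktl1* had mean normalized counts of 5.76 in N0 and 0.347 in NPI, too few for a fold.

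Between the cell states at rest, 3 of the 45 were higher (8.42% of all genes) and 8 lower (12%) in T0. *Mlxip*, a glucose-sensing transcription factor, was higher by 0.39 ± 0.07 (adjusted p = 0.000391), and *Ldhd* and *Trib3* were lower (-0.97 ± 0.28 and -0.94 ± 0.26). *Pklr*, the pyruvate kinase of liver and red blood cells, had mean normalized counts of 30.3 in T0, 42.3 in TAg and 14.3 in NAg and of 1.30 to 1.39 in N0, NPI and TPI, too few for a fold against those groups. Erythroid markers reached 193 CPM in T0 against at most 21.8 CPM in N0, and their part in the *Pklr* counts was not tested. After Ag 15 were higher (20.9% of all genes) and 10 lower (18.5%) in TAg than NAg, with *Galm* higher by 1.79 ± 0.21, *Pklr* by 1.57 ± 0.54 with overlapping libraries, and *Ldhd* (-1.06 ± 0.31) and *Myc* (-0.74 ± 0.09) lower. After PI 9 were higher (18.2% of all genes) and 17 lower (19.7%) in TPI than NPI, with *Hif1a* higher by 1.53 ± 0.11, *Galm* by 1.20 ± 0.22, and *Txnip* (-1.93 ± 0.30) and *Ldhd* (-1.32 ± 0.31) lower. In the responses themselves, *Galm* (1.42 ± 0.28), *Prps2* (1.15 ± 0.13), *Mlxip* (-1.07 ± 0.10) and *Rbks* (-0.80 ± 0.24) differed most between tolerized and naive cells with Ag, and *Hif1a* (1.18 ± 0.16), *Gpd2* (0.98 ± 0.12), *Txnip* (-1.84 ± 0.42) and *Pdp2* (-0.72 ± 0.16) with PI.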
